A study of Oryza sativa with 6 samples.

Results

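Among 38042 loci measured in rice roots, 73 were abundant in nodal roots and at least 16-fold lower in S-type lateral roots in both cultivars examined. These loci were chosen from their own values: the nodal value plus 1 had to be at least 16 times the S-type value plus 1 in each cultivar, and the nodal value had to be at least 100 in each. The difference between nodal and S-type roots is therefore a description of the choice and no finding, while the L-type lateral roots took no part in it.

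Roots of rice (Oryza sativa) were profiled by strand-specific sequencing of messenger RNA, with 1 library for each of 3 root types in each of 2 cultivars. The groups were nodal, S-type lateral and L-type lateral roots of Mulai, which the labels call salinity tolerant, and the same root types of IR29, which they call salinity sensitive. All plants grew at 30 degrees by day and 25 degrees by night, at 70% humidity by day and 75% by night, with a 12 h day. No salt treatment, plant age, transgene or mutation is named for any group. The labels do not say whether a library came from 1 plant or from a pool, and cultivar is confounded with any batch, since each cultivar's libraries refer to their own earlier records.

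Rice has a fibrous root system. Nodal roots, also called crown roots, emerge from the nodes of the stem and form the thick main axes, with wide xylem vessels and air-filled cortical tissue. They carry a pair of lateral root classes: L-type laterals are long and can branch again, and S-type laterals are short, thin and unbranched, and stop growing early. L-type laterals thus share with nodal roots the ability to branch, and with S-type laterals their origin on a parent root. A transcript lost in S-type laterals may be kept or lost in L-type laterals, and the L-type libraries show which.

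The loci carry identifiers made during assembly or quantification, and the table pairs none of them with a gene name or a position. Of the 38042 identifiers, 0 matched the RefSeq gene table at hand, so neither the root type markers, nor any pathway, nor any sequence could be set against these loci. Values are the authors' scaled fragment counts. They are not divided by transcript length, so they compare 1 locus between libraries and do not rank transcripts against each other. In bulk tissue, fewer cells of a type and less RNA per cell cannot be told apart. The libraries held between 3891153 reads (IR29 L-type) and 7904454 reads (Mulai nodal), and each Mulai library was deeper than each IR29 library.

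Together the 73 loci took 1.06% of the reads of Mulai nodal roots (exact 95% binomial interval 1.05 to 1.07) and 1.72% of those of IR29 nodal roots (1.71 to 1.74). In S-type roots they took 0.0196% of the Mulai reads (0.0185 to 0.0207) and 0.0257% of the IR29 reads (0.0241 to 0.0273). In L-type roots, which the choice did not use, they took 0.253% in Mulai (0.249 to 0.257) and 0.405% in IR29 (0.399 to 0.412). The L-type share lay between the shares of the other root types in both cultivars. These intervals cover counting error only.

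Over the 73 loci the nodal values ranged from 104 to 9399 in Mulai, with a median of 293, and from 108 to 14551 in IR29, with a median of 386. The S-type values ranged from 0 to 262 in Mulai (median 6.23) and from 0 to 412 in IR29 (median 6.02). In S-type roots 28 of the loci had at most 3 reads in Mulai, 36 had at most 3 reads in IR29, and 20 had at most 3 reads in both. Both S-type libraries were without a read for only 3 of the 73, so for most loci some transcript was still counted there, and XLOC_021161, named after its values were seen, reached 151 and 412 in S-type roots beside 5242 and 8779 in nodal roots. With 3 reads put in place of any lower value, the median ratio of nodal to S-type was 45.4 in Mulai and 44.7 in IR29. All 73 kept a ratio of at least 16 in both cultivars, but the choice fixed this beforehand. In S-type roots 3 reads are 2.67 units in Mulai and 4.51 in IR29, beside nodal values of at least 100. This count is therefore no check on the low S-type values.

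In the L-type libraries the values ranged from 0 to 2670 in Mulai, with a median of 47.0, and from 0 to 5367 in IR29, with a median of 32.8. The L-type value was strictly between the nodal and the S-type value in 70 of 73 loci in Mulai, in 55 in IR29 and in 53 in both. Over the 20316 tested loci, those that reached 10 units or more in 2 or more libraries, this order held in both cultivars for 12.5%. It held in Mulai for 28.6% and in IR29 for 18.9%. A locus chosen for a high nodal and a low S-type value leaves little room outside that range, so the order itself was likely beforehand. Where within the range the L-type value fell was not set by the choice.

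**Figure D1:**
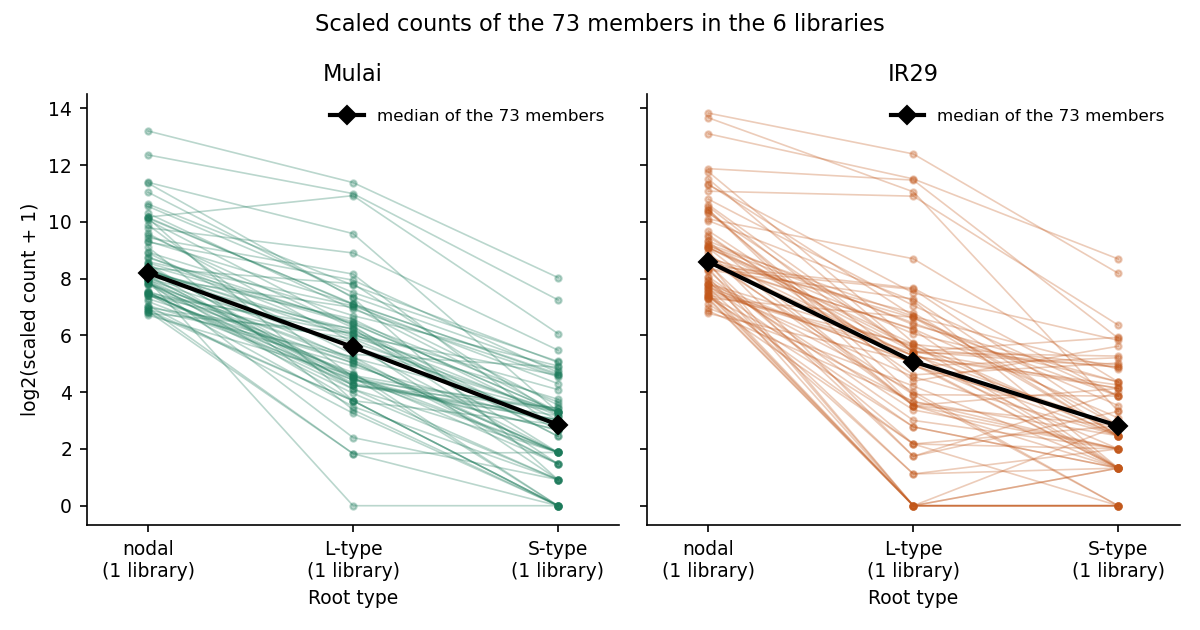
Scaled counts of the 73 loci on a log2(value + 1) scale (vertical axis) in the nodal, L-type and S-type library of Mulai (left) and IR29 (right). Each thin line is 1 locus and the black line joins the medians, which are 293, 47.0 and 6.23 in Mulai and 386, 32.8 and 6.02 in IR29 as scaled counts; more lines reach 0 in the IR29 L-type library than in the Mulai one.

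L-type roots were set against nodal roots to ask how far the loci were also reduced in the laterals that branch. The L-type value was lower than the nodal one in 72 of the 73 loci in Mulai and in all 73 in IR29. Of all tested loci, 50.9% were lower in Mulai and 47.6% in IR29. The median locus was 7.26 times lower in L-type than in nodal roots in Mulai and 13.8 times lower in IR29, on the scale of value plus 1. With that floor of 3 reads these medians were 7.29 and 14.1. Over the 8434 loci with a nodal value of at least 100 in both cultivars, the corresponding medians were 1.06 in Mulai and 1.08 in IR29.

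The L-type value was at least 4-fold below the nodal value in both cultivars for 50 of the 73 loci, against 1.85% of all tested loci and 1.11% of the 8434 loci with the same minimum in nodal roots. It was at least 16-fold below in both cultivars for 11 of the 73, against 0.192% of all tested loci. In a single cultivar, 11 loci were at least 16-fold below nodal in Mulai and 35 in IR29, where 0.276% and 1.81% of all tested loci were. The nodal libraries that set these folds are the ones in which the loci had to be high, so that the folds share them with the choice. The counts are a description of these libraries and carry no test.

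**Figure D2:**
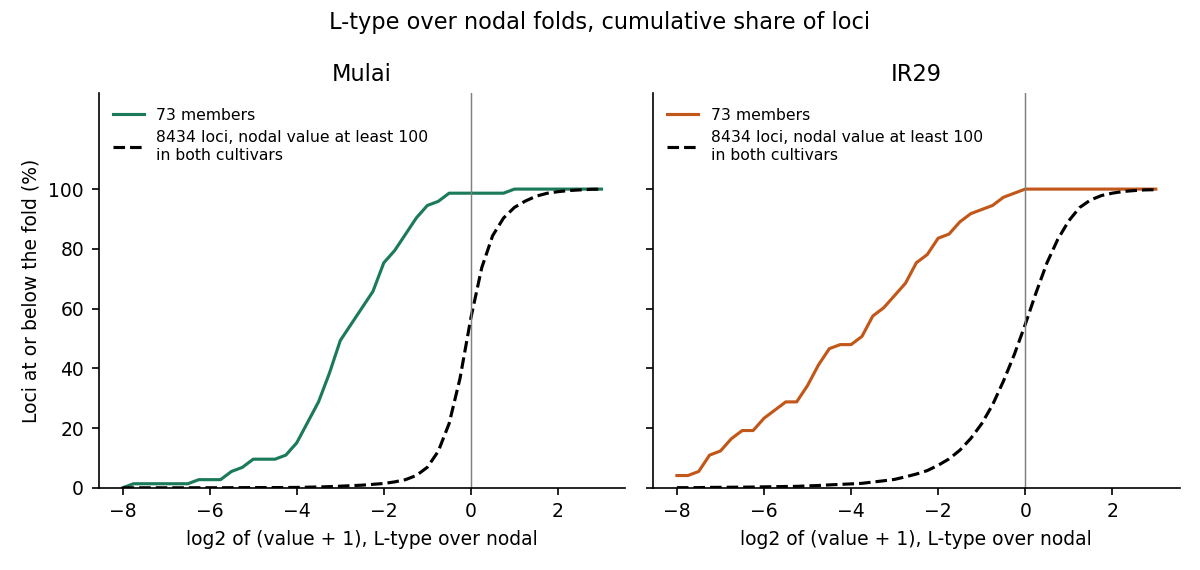
Cumulative share of loci (vertical axis, percent) at or below a given log2 fold of L-type over nodal roots (horizontal axis, on values plus 1) in Mulai (left) and IR29 (right). Solid lines are the 73 loci and dashed lines the 8434 loci with a nodal value of at least 100 in both cultivars; the median of the 73 lies at -2.86 in Mulai and -3.78 in IR29, and that of the 8434 at -0.08 and -0.12.

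A fit over all 20316 tested loci, with cultivar and root type as terms, used both cultivars as the only repeat of a root type. All 73 loci passed its filter on low values, through the nodal libraries in which they had to be high. For S-type against nodal roots all 73 were called lower, where 10.2% of all tested loci were (limma, adjusted p under 0.05), and nothing is read from this count because the choice used the same contrast. That count was 23 without the Mulai nodal library (0.177% of all tested loci were called lower) and 1 without the IR29 nodal library (0.00492%), fits that leave a lone nodal library. For L-type against nodal roots 2 of the 73 were called lower, where 0.00984% of all tested loci were, and these 2 were the only loci called lower in that contrast by limma at the same threshold. That contrast shares the nodal libraries, in which the 73 had to be high, so its calls are in part set by the choice and are given as a description that supports nothing. The count of 2 depended on the test: edgeR called 0 of the 73 lower (0% of all tested loci; 69 of the 73 had an unadjusted p under 0.05). DESeq2 called 63, where 3.28% of the loci with an adjusted p were. It was 0 without the Mulai nodal, the IR29 nodal or the IR29 L-type library, where 0% of all tested loci were called lower. It was 45 without the Mulai L-type library (3.46% of all tested loci), 49 without the Mulai S-type library (1.32%) and 54 without the IR29 S-type library (1.53%).

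XLOC_032584 reached 244 units in the nodal library of Mulai and 332 in that of IR29, and had no read in any of the 4 lateral root libraries. It was 1 of the 2 loci called. With 3 reads per library as the floor, its nodal value was at least 95.1-fold higher than the L-type value in Mulai and at least 94.5-fold higher in IR29. It was the only locus of the 73 with no read in either L-type library, and it was seen in nodal roots alone. XLOC_019322, the other locus called and named for that, had values of 2105 (nodal), 162 (L-type) and 26.7 (S-type) in Mulai and of 1777, 131 and 13.5 in IR29. Its nodal values were close between the cultivars, and so were its L-type values. Its S-type value was lower in IR29 and rests on 9 reads there and 30 in Mulai.

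For each locus the L-type level was placed between the S-type level (0) and the nodal level (1) on the log2(value + 1) scale. The median position was 0.49 in Mulai, with quartiles of 0.39 and 0.63, and 0.29 in IR29, with quartiles of 0.01 and 0.58. The position was lower in IR29 for 51 loci and higher for 21, and it was lower by at least 0.25 for 28 loci and higher by as much for 2. Positions in both cultivars correlated across the 73 loci (Pearson r = 0.56, Spearman rho = 0.56). Loci share their libraries, and the correlation is a description without a p-value.

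**Figure D3:**
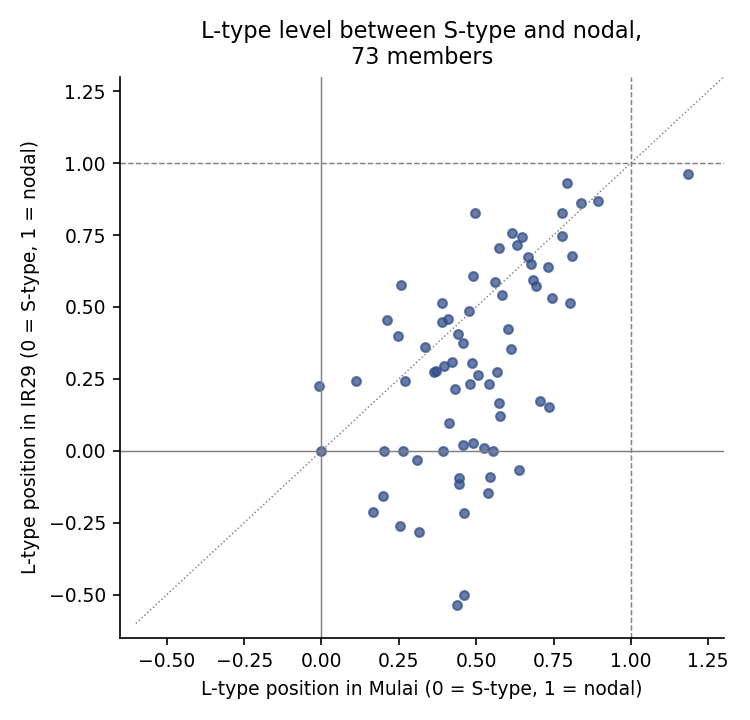
Position of the L-type level between the S-type level (0) and the nodal level (1) in Mulai (horizontal axis) and IR29 (vertical axis), 1 point per locus, 73 loci; the dotted diagonal marks equal positions. Most points lie below the diagonal (51 loci), and a group along or under 0 in IR29 spreads over positive positions in Mulai.

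By a fold of 2, 4 loci had an L-type value close to nodal in Mulai (within 2-fold), 63 lay between, and 6 were close to S-type. In IR29, 5 were close to nodal, 43 lay between, 19 were close to S-type and 6 were more than 2-fold below it. Of all tested loci, 22.4% were at least 2-fold below S-type in IR29 and 11.2% in Mulai. Over the 8434 loci with the nodal minimum of 100, these shares were 15.0% and 5.30%. The share close to S-type was not counted over all loci, so the IR29 counts are no trait of the 73. The same class was found in both cultivars for 46 of the 73, of which 40 lay between in both, 4 were close to nodal in both and 2 were close to S-type in both. No locus was more than 2-fold above nodal in either L-type library.

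For 4 loci the L-type laterals of both cultivars kept a level within 2-fold of nodal, while the S-type laterals did not. XLOC_001196 had values of 1148 (nodal), 1939 (L-type) and 65.9 (S-type) in Mulai and of 2163, 1915 and 81.2 in IR29. It was the single locus of the 73 with more signal in an L-type than in a nodal library, in Mulai, and its L-type values were alike in both cultivars. Its nodal value was 17.4 times the S-type value in Mulai (95% counting interval 13.8 to 22.3) and 26.6 times in IR29 (20.3 to 35.6).

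XLOC_005105 had values of 331, 225 and 8.01 in Mulai and of 323, 196 and 6.02 in IR29, in the order nodal, L-type and S-type. Its values were close between the cultivars in each root type, and its S-type values rest on 9 and 4 reads. XLOC_015776 had values of 109, 66.7 and 4.45 in Mulai and of 158, 98.4 and 4.51 in IR29. XLOC_024095 had values of 883, 478 and 43.6 in Mulai and of 3749, 2835 and 58.6 in IR29, so that its nodal and L-type values were both higher in IR29 and its S-type values were close. Another locus, XLOC_003332, was close to nodal in IR29 only, with values of 246, 47.9 and 8.90 in Mulai and of 350, 201 and 13.5 in IR29. None of the 5 was called different between L-type and nodal roots (limma), which does not show that their levels were equal. XLOC_015776 and XLOC_003332 were named after their values were seen.

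At the other end, 6 loci had an L-type value within 2-fold of S-type in Mulai. The loci within 2-fold of S-type in both cultivars were XLOC_032584 and XLOC_002644, the latter named after its values were seen, with 181 (nodal), 17.96 (L-type) and 9.79 (S-type) in Mulai and 203, 1.17 and 3.008 in IR29, where the lateral root values rest on 1 and 2 reads. Next to XLOC_032584, the lowest position by its larger value over the cultivars was that of XLOC_005244, which was more than 2-fold below S-type in IR29. It had values of 243 (nodal), 11.97 (L-type) and 6.23 (S-type) in Mulai and of 191, 0 and 1.504 in IR29. Its L-type value rests on 14 reads in Mulai and 0 in IR29, where the nodal value was at least 54.5-fold higher with 3 reads as the floor. The S-type value rests on 7 reads and 1 read, so the order of both lateral types cannot be told at this depth.

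The 2 loci with the highest mean nodal value lay between in both cultivars. XLOC_006728 had values of 9399 (nodal), 2670 (L-type) and 262 (S-type) in Mulai and of 14551, 5367 and 290 in IR29, which places L-type at 0.65 and 0.75 of the way to nodal. XLOC_009528 had values of 2683, 767 and 8.90 in Mulai and of 12978, 2130 and 9.02 in IR29, at positions of 0.78 and 0.75. Its nodal value was 301 times the S-type value in Mulai (counting interval 164 to 629) and 1438 times in IR29 (661 to 3920), and the S-type values rest on 10 and 6 reads. Together these loci took 24.0% of the reads of the 73 loci in Mulai nodal roots and 32.6% in IR29 nodal roots, and 28.2% and 40.6% in the L-type libraries, so that the summed shares above lean on them.

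The cultivars were also set side by side in L-type roots. For 22 of the 73, the L-type value lay between nodal and S-type in Mulai but close to S-type or below it in IR29. Over these 22 the median values were 310 (nodal), 27.4 (L-type) and 5.78 (S-type) in Mulai and 413, 7.03 and 11.3 in IR29. Their nodal values were thus not lower in IR29 at the median, while their L-type values were, from a median of 32 reads in Mulai to a median of 6 reads in IR29. Over the 40 loci that lay between in both cultivars, the medians were 310, 53.0 and 5.78 in Mulai and 434, 45.1 and 4.51 in IR29. The reverse was seen for 3 loci, which were close to S-type in Mulai and lay between in IR29: XLOC_002720, XLOC_005317 and XLOC_018107, named after their values were seen. In IR29, XLOC_005317 and XLOC_018107 each had 5 reads in L-type and 1 read in S-type roots. With 3 reads as the floor, their IR29 S-type value is 4.51 beside 5.86 in L-type, so both are then close to S-type. XLOC_002720 had 19 and 3 reads there. These groups of loci were formed from the values and were not counted over all loci. The difference between the cultivars was not tested, since each L-type group is 1 library.

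Within each root type, folds of 2 or more between the cultivars were counted. In L-type roots, IR29 was under Mulai by such a fold in 29 of the 73 loci and over it in 9, where 25.8% and 15.0% of all tested loci were. Over the 8434 loci with the same minimum in nodal roots, these shares were 15.9% and 6.78%. In nodal roots, IR29 was under Mulai in 2 loci and over it in 11, where 13.4% and 7.64% of all tested loci were. The minimum of 100 in both nodal libraries limits such folds, and over the 8434 loci the shares were 2.04% and 1.91%. In S-type roots, IR29 was under Mulai in 14 loci and over it in 18, where 14.0% and 14.7% of all tested loci were. Over the 8434 loci the S-type shares were 5.35% and 6.70%. Many S-type values of the 73 rest on a few reads. The IR29 L-type library thus stood apart over all loci as well, and it was the shallowest of the 6. After the reads of every library were thinned to its total, the count of 29 was again 29. That thinning left the IR29 L-type reads as they were, and 15 of the 73 had at most 3 reads there. It therefore says nothing on such low values, and the part of that library in the result was not tested.

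The median log2 fold of IR29 over Mulai across the 73 loci was 0.40 in nodal, -0.34 in L-type and 0.15 in S-type roots, against -0.03, -0.05 and -0.01 over all tested loci. The nodal value was higher in IR29 for 52 of the 73, where 47.7% of all tested loci were. For 26 of the 73 the nodal value was higher and the L-type value lower in IR29, where 16.4% of all tested loci were. Among the 8434 loci with the same nodal minimum, these shares were 54.4% and 21.1%. Levels of the loci on the log2 scale correlated between the cultivars at r = 0.87 in nodal, 0.79 in L-type and 0.71 in S-type roots (Spearman rho 0.79, 0.73 and 0.62) across the 73 loci, as a description that also reflects their differing lengths and abundance.

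**Figure D4:**
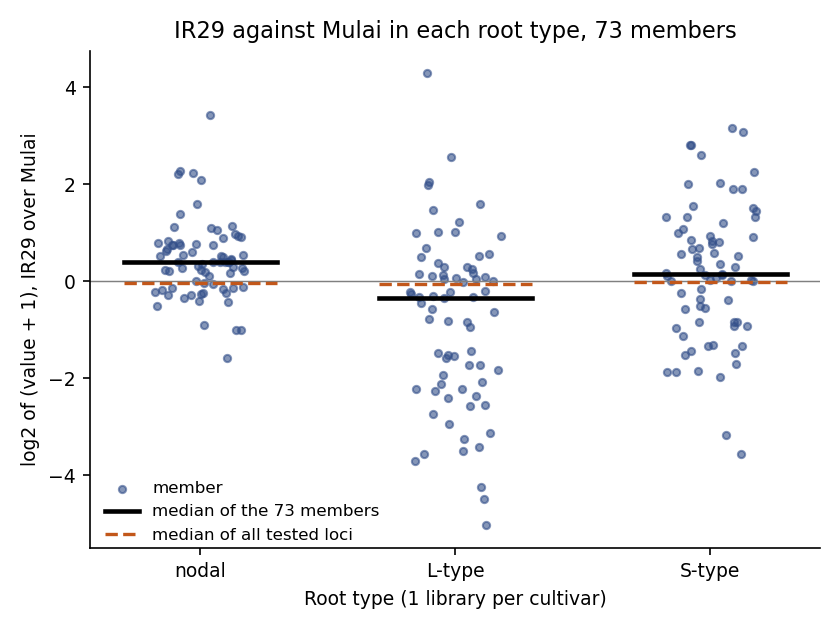
Log2 fold of IR29 over Mulai on values plus 1 (vertical axis) in nodal, L-type and S-type roots, 1 point per locus, 73 loci, with 1 library per cultivar and root type. Black bars are the medians of the 73 (0.40, -0.34 and 0.15) and dashed bars those of all 20316 tested loci; the points of L-type roots spread furthest downward.

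Some loci differed many-fold between the L-type libraries. XLOC_005840 had values of 1140 (nodal), 135 (L-type) and 24.0 (S-type) in Mulai and of 1370, 10.5 and 16.5 in IR29. Its nodal values were close in both cultivars, and its L-type value was 12.8 times higher in Mulai (95% counting interval 6.58 to 28.6). XLOC_015510 had values of 374, 88.1 and 11.6 in Mulai and of 431, 10.5 and 6.02 in IR29, with an L-type value 8.36 times higher in Mulai (4.23 to 18.8). Both IR29 L-type values rest on 9 reads.

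In the other direction, XLOC_017768 had values of 238, 4.28 and 0.890 in Mulai and of 2570, 102 and 6.02 in IR29. All 3 root types were higher in IR29, and the L-type value was 23.8 times that of Mulai (counting interval 9.83 to 75.2), on 87 against 5 reads. Its S-type values rest on 4 reads in IR29 and 1 read in Mulai, too few to tell their order. XLOC_024095, described above, had an L-type value 5.93 times higher in IR29 (5.41 to 6.51), beside a nodal value that was 4.24 times higher on the scale of value plus 1.

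The choice treats the cultivars alike, so IR29 was also compared with Mulai over all root types in the fit described above. Of the 73 loci, 1 was called higher and 1 lower in IR29, where 2.86% and 4.52% of all tested loci were (limma, adjusted p under 0.05). The locus called higher was XLOC_017768, by 3.20 ± 0.54 on the log2 scale (SE; adjusted p = 0.0189, limma), higher in IR29 in 3 of 3 root types. The locus called lower was XLOC_005317, which fell by 2.56 ± 0.51 (SE; adjusted p = 0.0342, limma), with values of 478 (nodal), 39.3 (L-type) and 28.5 (S-type) in Mulai and of 160, 5.86 and 1.504 in IR29, lower in 3 of 3 root types. The S-type part rests on 4 reads in IR29 and 1 in Mulai for XLOC_017768, and on 1 and 32 for XLOC_005317. The 73 had to be abundant in nodal roots of both cultivars, and of the 8434 loci with that minimum 0.486% were called higher and 0.474% lower. Neither locus was called without the Mulai nodal or without the IR29 nodal library, where the count among the 73 was 0 and 5.27% and 4.84% of all tested loci were called in either direction. The count was 4 without the IR29 S-type library, where 8.33% were. Cultivar and batch cannot be told apart.

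L-type roots were also set against S-type roots. The L-type value was at least 4-fold above the S-type value in both cultivars for 30 of the 73 loci, where 1.15% of all tested loci were; the loci had to be low in these S-type libraries. It was at least 2-fold above in 67 loci in Mulai and in 48 in IR29, where 16.1% and 16.5% of all tested loci were. In the fit, 0 of the 73 were called higher in L-type roots, where 0% of all tested loci were (limma). An unadjusted p under 0.05 was reached by 49 of the 73, where 8.72% of all tested loci were. edgeR also called 0 of the 73 (0% of all tested loci; 52 had an unadjusted p under 0.05), and DESeq2 called 37, where 1.99% of the loci with an adjusted p were. The limma count was 15 without the Mulai L-type library (0.305% of all tested loci), 10 without the Mulai S-type library (0.0886%) and 5 without the IR29 S-type library (0.0394%). The 73 had to be low in the S-type libraries, so these calls are in part set by the choice as well and support nothing.

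The same rule with nodal and S-type roots exchanged gave 99 loci that were abundant in S-type and low in nodal roots. In those, the median L-type position on the same scale (0 S-type, 1 nodal) was 0.44 in Mulai and 0.50 in IR29, against 0.49 and 0.29 for the 73 loci. The Mulai L-type library lay near the middle for both groups of loci, and the IR29 L-type library lay near the middle for the 99 and nearer to S-type for the 73. The difference between the groups of loci was not tested.

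The edge of the rule fell in a continuous range. The 2 loci just inside had a smaller ratio of 16.045 and 16.3 over both cultivars, and the 2 just outside, among those with the nodal minimum, had 15.9 and 15.8. The first just inside had values of 486 (nodal), 103 (L-type) and 29.4 (S-type) in Mulai, and the first just outside had 171, 35.9 and 9.79.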

How the data were processed

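The authors deposited 1 table of scaled fragment counts per locus, a signal that per the file headers has 1 count column per library. Other columns are 3 variance estimates per library and were not used. The submitters' processing notes name Trimmomatic (0.32), TopHat2 (2.0.11) with Bowtie, then Cufflinks (2.2.1), and Cuffdiff (2.2.1) for build IRGSP-1.0. The annotation, strand setting and treatment of shared reads are not given in these sources, so signal shared by similar loci could not be assessed. Values were whole multiples of 1 step per library (100% of values, tolerance 0.1 of a read; 0.601 to 1.50 units per read), and division by it gave whole reads. The 20316 loci that reached 10 units or more in 2 or more libraries were fitted as log2(value + 1) with limma 3.58.1 (R 4.3.3; cultivar and root type as terms, variance trend, 2 residual degrees of freedom; Benjamini-Hochberg over all of them). With 1 library per group, the spread left in this fit is how far the root type differences varied between the cultivars, with any technical spread. The p-values judge differences against that spread and not against a spread among replicate plants. Nothing says that the libraries of a cultivar came from separate plants. edgeR 4.0.16 and DESeq2 1.42.0 on recovered reads were alternatives. Counting intervals are exact binomial. The members, folds and rules were chosen with earlier results of these data known; named loci are the 2 highest in nodal roots, those with L-type nearest nodal and nearest S-type in both cultivars, and, with a value of at least 50 in an L-type library, those with the most extreme cultivar fold there. Counts of loci near or below S-type, the thinning of reads and the floor of 3 reads were added after the data were seen.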

Additional observations from a re-analysis of the deposited data

Results flagged for a closer look

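For 5 of the 73 loci, the L-type value was at least 2-fold above the S-type value in Mulai and at least 2-fold below it in IR29, and for 0 loci the reverse held. They were flagged because the cultivars moved in opposite directions; the difference was not tested, since each value is 1 library. They were named after their values were seen. Of all tested loci, 16.1% had L-type at least 2-fold above S-type in Mulai, and 22.4% had it at least 2-fold below in IR29. The share with both was not counted over all loci, so whether 5 of 73 is many cannot be said. XLOC_002616 had L-type and S-type values of 18.8 and 7.12 in Mulai and of 19.9 and 48.1 in IR29. It had the most reads of the 5 in the IR29 lateral roots, with 17 and 32. XLOC_031244 had 14.5 and 0.890 in Mulai and 2.34 and 15.0 in IR29, and XLOC_020868 had 21.4 and 5.34 in Mulai and 2.34 and 9.02 in IR29. In these loci the Mulai L-type value rests on 17 and 25 reads and the IR29 L-type value on 2 reads each. XLOC_017283 had 21.4 and 2.67 in Mulai and 0 and 6.02 in IR29, where 6.02 is 4 reads. XLOC_032127 had 8.55 and 0 in Mulai and 0 and 1.504 in IR29, where 1.504 is 1 read. With 3 reads as the floor, both have an IR29 L-type value of 3.51. It stands beside S-type values of 6.02 for XLOC_017283 and 4.51 for XLOC_032127, so neither is then 2-fold below S-type.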

How the results depend on the processing

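Other tests and settings moved the counts of loci called among the 73; the cause was not tested. Where L-type was lower than nodal (2 loci), edgeR and a model without cultivar gave 0 (0% of all loci tested), DESeq2 63 (3.28%), a pseudocount of 5 gave 20 (0.172%) and no filter 21 (0.156%). For L-type higher than S-type (0 loci), DESeq2 gave 37 (1.99%), no filter 10 (0.0484%) and a filter at 50 gave 1 (0.0068%). For IR29 against Mulai (2 loci), DESeq2 gave 6 (10% of the loci with an adjusted p), a filter at 50 gave 1 (4.94%) and a model without root type 0 (5.45%). When each library was left out, the counts ran from 1 to 73 loci for S-type lower than nodal, 0 to 54 for L-type lower than nodal, 0 to 15 for L-type higher than S-type and 0 to 4 for the cultivars; in such a fit 1 root type rests on a single library, whose spread is taken from the others.

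A fold of 8 in the rule gave 155 loci and a fold of 32 gave 37, which by construction moved counts with the size of the list. In that order, L-type within 2-fold of nodal held 14 and 1 loci in Mulai and 13 and 1 in IR29, near or below S-type 19 and 2 in Mulai and 59 and 13 in IR29, and at least 2-fold lower in IR29 than in Mulai 62 and 16. L-type at least 4-fold below nodal in both cultivars held 26 of the 37 loci. The median position in Mulai was 0.44 with a pseudocount of 5. The other 64 values under the alternatives stayed within 1.5 times or, for medians, within the binomial interval of the median. Cultivar paired the root types as a term of the model. No other pairing was possible, since each group is 1 library.

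Depth limits what can be said of S-type and IR29 L-type values of a few reads, and a single library per group leaves every cultivar difference within a root type without a replicate check.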
